A study of Mus musculus with 26 samples.

Results

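Sox1 and 9 other genes of the early neuroectoderm and of neural progenitors were followed through 26 RNA-seq libraries of mouse embryonic stem cells (ESCs) and of the neural progenitor cells (NPCs) made from them. The 10 genes, Sox1, Pax6, Zic1, Zfp521, Pou3f2, Sox11, Sox21, Nes, Fabp7 and Ncam1, were taken by name from the 55291 gene symbols listed in each of 2 count tables. The first table held 8 libraries of CTCF rescue lines, 2 for each CTCF form (WT or ΔZF1) in each cell type. All of these E14 cells carried a degron and eGFP on both alleles of endogenous CTCF, OsTIR1(F74G) at Rosa26, an mCherry reporter at Hb9 and a doxycycline-inducible Flag-Halo-CTCF at Tigre. The induced CTCF was either WT or lacked part of zinc finger 1 (ΔZF1), and both rescue lines were single clones. Every rescue culture received 1 µM 5-Ph-IAA, which removes the endogenous protein, together with 1 µg/ml doxycycline for 24 h before harvest, so no untreated cells were compared here. The second table held 18 libraries, 3 each of parental E14 (WT), Podxl pA and Grb10 pA cells as ESCs and as NPCs. In the pA lines an eGFP cassette ending in an SV40 polyadenylation signal was knocked in homozygously to truncate the Podxl or the Grb10 RNA. These lines were also made from single-cell clones. NPCs were differentiated for 2 days without the stem cell inhibitors, on laminin. The study places the 24 h of treatment of the rescue NPCs after their differentiation, without spelling out the day of harvest. The rescue NPCs may thus have been older than those of the truncation table. The study calls the libraries of a group biological replicates without saying what was repeated, and p-values measure the spread between these libraries of a line.

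When mouse ESCs leave naive pluripotency under neural conditions, Sox1, a SoxB1 transcription factor, is among the earliest genes that mark definitive neuroectoderm. Zfp521 is a zinc finger protein that drives the entry into the neural fate, Pax6, Zic1, Sox11, Sox21 and Pou3f2 (Brn2) are transcription factors of neural progenitors and their daughters, Nes encodes the intermediate filament nestin, Fabp7 a lipid-binding protein of radial glia, and Ncam1 the neural cell adhesion molecule. CTCF organizes chromatin into loops and also binds RNA, and its first zinc finger takes part in RNA binding.

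Total counts ran from 6425179 to 28730435 per library in the rescue table and from 1907505 to 8845087 in the truncation table. The truncated RNAs were reduced where the labels say so. Grb10 was at 52.2 to 59.4 CPM (counts per library size, as scaled by edgeR's TMM factors) in NPC-Grb10 pA against 769 to 814 in NPC-E14, and Podxl was at 20.8 to 24.3 CPM in NPC-Podxl pA against 232 to 259. Among replicate pairs, the NPC-WT rescue libraries differed most, with a chi-square of 64.1 per degree of freedom, and all pairs lay at or above 1.69. Values for single libraries are therefore given throughout. Of 13 naive pluripotency genes, 12 or 13 were lower in NPCs in every line. Dcx, a marker of young neurons, was at or below 0.423 CPM in all libraries, but does not stand for all neuron markers. A list of 14 of these summed to 146 to 164 CPM in NPC-WT and 137 to 147 in NPC-E14. The sums were 358 to 363 CPM in ESC-WT and 348 to 363 in ESC-E14. In bulk RNA, fewer cells of a type and less RNA per cell cannot be told apart. By flow cytometry of Sox1 protein, the study reports that both pA lines formed NPCs with this marker. For the share of Sox1-positive cells in these lines, its legend lists only a mark for no significant difference. It reports this marker in most cells of both rescue lines differentiated without treatment. Cells with ΔZF1 in the endogenous CTCF gave a lower share and number of Sox1-positive cells. Sox1 RNA was instead higher in NPCs of the ΔZF1 rescue line. Staining and RNA were not compared by a test. Whether the pA libraries came from the stained cultures is not stated.

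Promoter windows of 8 of the 10 genes were found in the RefSeq table for GRCm38.p6, and 3 are shown because their genes had the most distinct behaviour. Sox1 and Sox11 were the members called higher in NPCs in all 5 lines, and Nes was the member called lower in both cell types of Grb10 pA. Each window begins 250 bases before the RefSeq transcription start and ends 30 bases after the first start that RefSeq or GENCODE gives, 5′ to 3′ on the strand of the gene. Capitals mark matches on either strand to the octamer of POU factors ATGCAAAT, the CCAAT box CCAAT, the Sox-type letters ACAATG and ACAAAG, or AGGGGGCG, a stretch of the CTCF consensus that also overlaps GC boxes. The Sox1 window is chr8:12395269-12395324 on the plus strand, cut short because the single exon that GENCODE draws for this gene, chr8:12395295-12400126, begins upstream of the RefSeq start. The Sox11 window is chr12:27342689-27342968 on the minus strand. The Nes window is chr3:87970843-87971107 on the plus strand.
Sox1: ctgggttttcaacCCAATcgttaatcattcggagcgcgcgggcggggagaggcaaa
Sox11: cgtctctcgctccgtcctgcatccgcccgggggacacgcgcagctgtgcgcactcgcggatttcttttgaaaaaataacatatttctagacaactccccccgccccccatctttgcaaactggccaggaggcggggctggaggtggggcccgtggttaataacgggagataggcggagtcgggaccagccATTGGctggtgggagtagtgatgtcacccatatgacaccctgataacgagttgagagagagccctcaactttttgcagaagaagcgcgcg
Nes: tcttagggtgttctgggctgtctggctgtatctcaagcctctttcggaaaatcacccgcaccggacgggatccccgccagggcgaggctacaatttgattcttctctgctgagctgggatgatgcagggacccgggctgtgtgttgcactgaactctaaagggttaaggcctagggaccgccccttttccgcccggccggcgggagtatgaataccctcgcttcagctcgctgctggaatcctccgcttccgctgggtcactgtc
The full RefSeq window of Sox1, of which only the beginning is printed, also held an octamer 19 bases after the RefSeq start, and over all 32851 RefSeq windows of 300 bases 1.74% held one. The CTCF-type letters occurred at 2 places in that full window and in 6.07% of all windows. CCAAT was found in the windows of Sox1 and Sox11, as in 37.4% of all windows. The Sox-type letters ACAATG were in 12.6% and ACAAAG in 18.7% of all windows, and neither was in the windows of these 3 genes. Such matches are letters in a window and were not tested for binding.

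Sox1 was expressed in all 26 libraries and was lowest in parental ESCs. In the truncation table Sox1 was at 4.80, 5.48 and 3.88 CPM in ESC-E14, at 5.78, 5.31 and 6.70 in ESC-Podxl pA and at 5.63, 7.25 and 7.11 in ESC-Grb10 pA. In NPCs it reached 83.8, 79.9 and 74.1 CPM in E14, 52.4, 48.9 and 52.2 in Podxl pA and 22.1, 30.4 and 24.5 in Grb10 pA. The order of means was thus NPC-E14 (79.3 ± 4.87, SD, n = 3), NPC-Podxl pA (51.2 ± 1.95), NPC-Grb10 pA (25.6 ± 4.30), and then the ESC groups, whose neighbours in the order overlapped. The NPC groups did not overlap each other or the ESCs. In the rescue table Sox1 was at 6.72 and 5.54 CPM in ESC-WT, 12.1 and 10.9 in ESC-ΔZF1, 16.8 and 22.0 in NPC-WT and 39.2 and 40.4 in NPC-ΔZF1, again with no overlap between groups. Levels were not compared by a test between the tables, which were normalized separately. Per kilobase of exon, Sox1 at 16.4 CPM per kb was the highest member in NPC-E14, ahead of Sox11 at 6.35, whereas Nes at 15.3 CPM per kb led Sox1 at 4.01 in the NPC-WT rescue line.

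**Figure D1:**
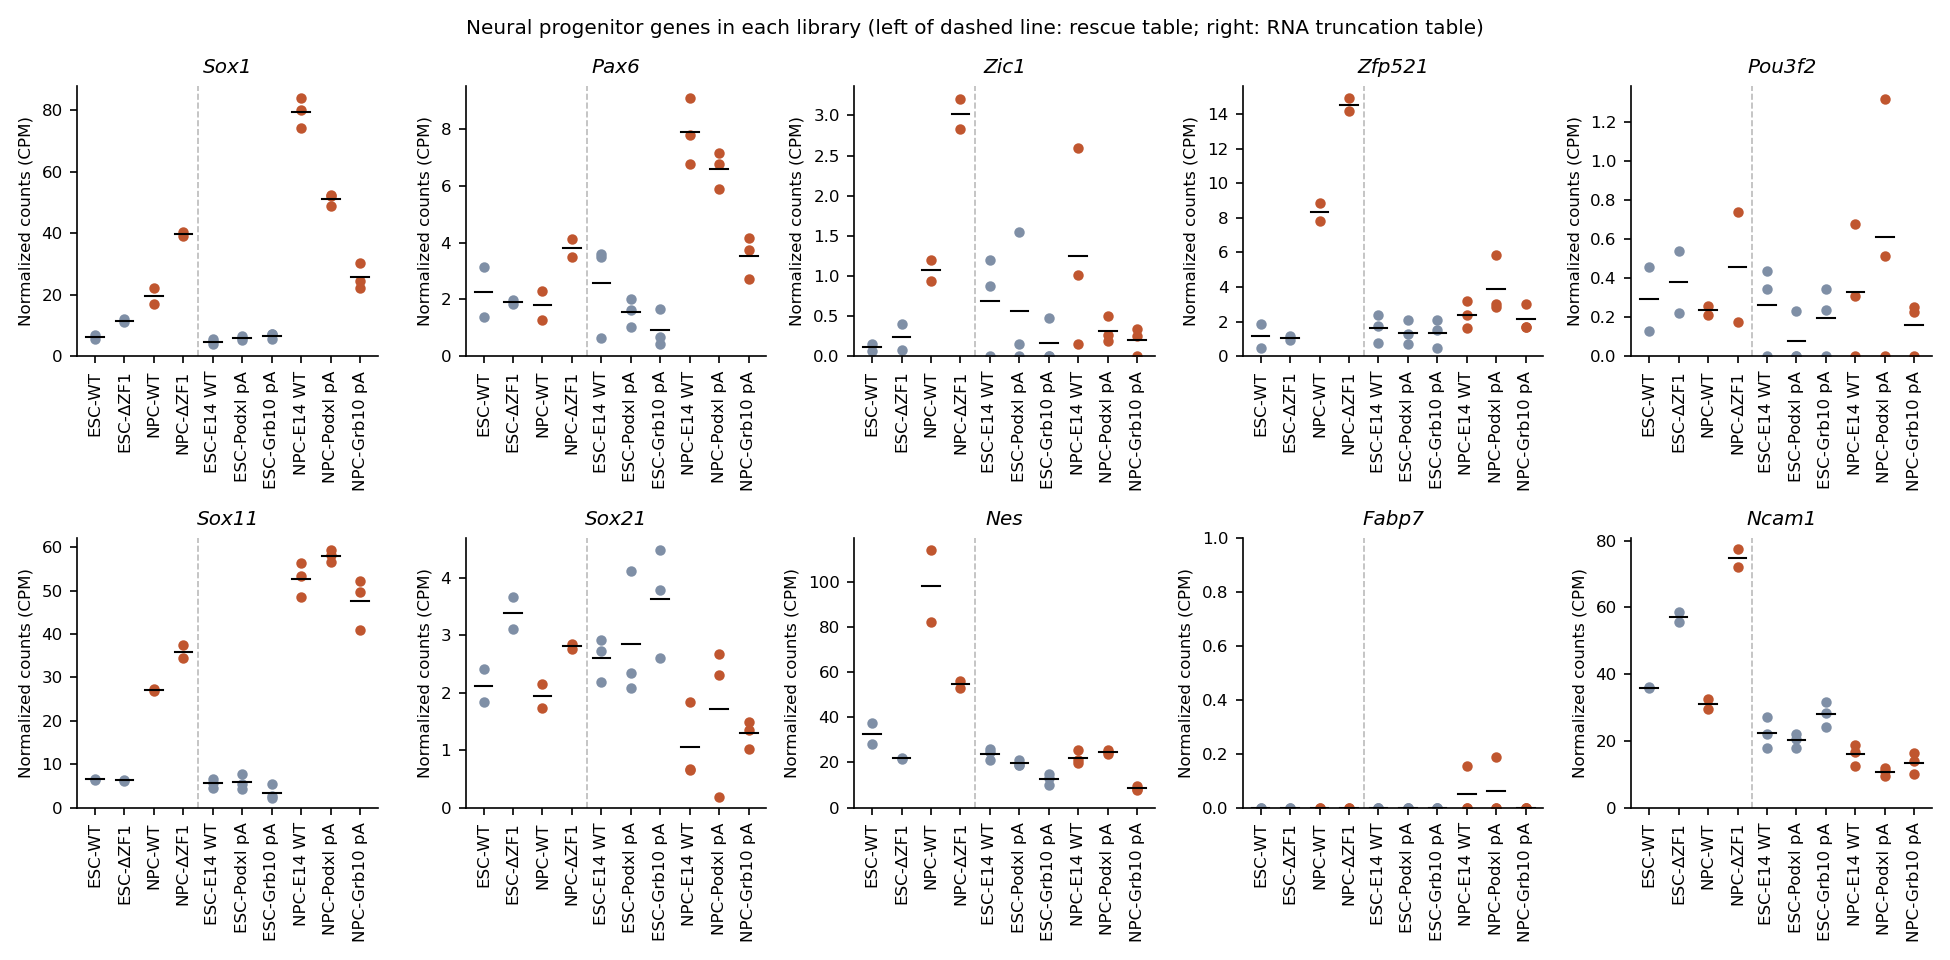
Normalized counts (CPM, linear y axes from 0) of the 10 genes in each library, by group on the x axis. Points are libraries, bars group means, blue-grey ESCs and orange NPCs, and the dashed line parts the rescue table (left) from the truncation table (right). Sox1 and Sox11 are higher in every NPC library than in any ESC library of their line, whereas Fabp7 stays at or under 1 read per library.

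Sox1 and Sox11 rose with differentiation in every line, and the other members did so in some lines, in none, or were too low to test. In the text a gene is called when edgeR's quasi-likelihood test gave a Benjamini-Hochberg adjusted p of at most 0.05 over all genes tested and the log2 fold change was at least 0.5 in size. In NPC-WT relative to ESC-WT, 5 of the 8 members tested were called higher and none lower, with 22.0% of all genes called higher and 19.9% lower. In NPC-ΔZF1 relative to ESC-ΔZF1, 6 of 8 were called higher and none lower (20.4% and 16.9% of all genes). In E14 the counts were 3 of 7 higher and none lower (16.5% and 16.3%), in Podxl pA 4 higher and 1 lower (17.1% and 14.7%), and in Grb10 pA 3 higher and 3 lower (17.2% and 17.4%). The median log2 fold change of the members tested was 1.62, 1.55, 0.54, 1.70 and 0.63 in these lines, in the same order, while the median over all genes lay within 0.03 of 0. Zic1 is among the 5 and the 6 of the rescue lines, although it passed the filter on low counts through the NPC libraries alone, which favoured a call in this direction. Without it 4 of 7 and 5 of 7 were called higher. In the truncation table, where 3 libraries above 2.24 CPM were needed, the filter also leaned to 1 cell type. Pax6 had 2 ESC and 9 NPC libraries above it, Zfp521 1 and 6, and Sox21 7 and 2. This favoured calls of Pax6 and Zfp521 as higher in NPCs and of Sox21 as lower. These counts and medians describe the members that passed the filter and support nothing further.

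Sox1 rose 16.1-fold in E14 (log2 fold change 4.01 ± 0.16, SE, adjusted p = 2.09e-17), 8.91-fold in Podxl pA, 3.81-fold in Grb10 pA, 3.20-fold in the WT rescue line and 3.45-fold in the ΔZF1 rescue line. Sox11, an activator of neuronal genes in committed progenitors, moved alongside. It went from 4.58, 5.65 and 6.60 CPM in ESC-E14 to 53.4, 48.6 and 56.3 in NPC-E14, a log2 rise of 3.25 ± 0.18 (adjusted p = 4.57e-14). Its rise was 3.40 in Podxl pA and 3.91 in Grb10 pA, and 2.06 and 2.50 in the WT and ΔZF1 rescue lines. Every NPC library exceeded every ESC library of its line for both genes, and the share of all genes that did so was not counted.

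Pax6, the paired-box factor of cortical and spinal progenitors, stayed low, at no more than 9.10 CPM. It was at 0.654, 3.60 and 3.49 CPM in ESC-E14 and at 6.80, 7.79 and 9.10 in NPC-E14, a log2 rise of 1.63 ± 0.35 (adjusted p = 0.000411), and it was also called higher in Podxl pA (1.94) and Grb10 pA (1.91). In the truncation table Pax6 passed the filter on low counts with 9 NPC libraries and only 2 ESC libraries above 2.24 CPM. In the rescue lines its log2 fold change was -0.39 in WT, with overlapping libraries, and 1.00 ± 0.35 in ΔZF1 (adjusted p = 0.0423), a call that was lost when any 1 of the 4 ΔZF1 libraries was left out and by DESeq2 (adjusted p = 0.112).

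Zfp521 and Zic1 were called higher in the NPCs of both rescue lines. Zfp521 went from 1.83 and 0.457 CPM in ESC-WT to 7.80 and 8.85 in NPC-WT (log2 rise 3.18 ± 0.39, adjusted p = 0.000124) and from 0.955 and 1.15 to 14.2 and 14.9 in the ΔZF1 line (3.78 ± 0.34). The ESC-WT libraries lay far apart, and the WT rise was 4.16 without ESC-WT replicate 1 and 2.17 without replicate 2. In the parental background it was at 1.62, 3.21 and 2.36 CPM in NPC-E14 against 2.40, 1.71 and 0.777 in ESC-E14, which overlapped, and it was called higher in Podxl pA (1.70 ± 0.46). The difference between Podxl pA and E14 in this was not called (1.16 ± 0.68, adjusted p = 0.582). Whether the parental and rescue lines differ in this was not tested.

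Zic1 was near the detection limit in ESCs, with 2 reads in the ESC-WT libraries together and 36 in NPC-WT. The ratio of normalized reads was 11.2, with an exact 95% interval for counting error of 2.88 to 95.8. In ΔZF1 cells 7 and 168 reads gave a ratio of 12.3 (5.83 to 31.0). Zic1 passed the filter in the rescue table through its NPC libraries alone, since no ESC library was above 0.666 CPM, and it was called higher in both rescue lines, although not in WT without ESC-WT replicate 2 (adjusted p = 0.104). In the truncation table it had at most 8 reads in a library and was not tested.

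Nes was called higher in the NPCs of both rescue lines and not in those of the truncation table, a contrast that was not tested between the tables. Nes rose from 28.0 and 37.6 CPM in ESC-WT to 82.2 and 114 in NPC-WT (log2 rise 1.56 ± 0.18, adjusted p = 8.07e-05) and from 21.7 and 22.2 to 55.9 and 53.1 in the ΔZF1 rescue line (1.31 ± 0.18). In E14 it was at 25.9, 24.8 and 21.0 CPM in ESCs and 21.0, 25.5 and 19.5 in NPCs, with a log2 fold change of -0.11 ± 0.15, and in Grb10 pA it was called lower in NPCs at -0.55 ± 0.18 (adjusted p = 0.0111). The last call was lost without ESC-Grb10 pA replicate 2 or without NPC-Grb10 pA replicate 1.

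Ncam1 was lower in NPCs in Podxl pA (-0.91 ± 0.20) and Grb10 pA (-1.03 ± 0.18) and was not called in E14 (-0.45 ± 0.19, adjusted p = 0.0492, under the size cutoff), where it was called without ESC-E14 replicate 2 or NPC-E14 replicate 3. It was not called in the rescue lines either (-0.21 in WT and 0.39 in ΔZF1). Sox21, a repressive SoxB2 factor, was at or under 4.49 CPM in all libraries. It was called lower in NPCs of Grb10 pA alone (-1.44 ± 0.47, adjusted p = 0.0125), and in E14 it was called lower only without NPC-E14 replicate 2. Its difference between Grb10 pA and E14 in this was not called.

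Pou3f2 and Fabp7 were too low to test in either table. Pou3f2 had at most 20 reads in a library, in NPC-ΔZF1, and at most 7 in the truncation table. Fabp7 had 0 reads in all 8 rescue libraries, where a count of 0 allows up to 3 reads or 0.106 to 0.459 CPM, and 2 reads in total over the truncation libraries. The radial glial gene thus had no read in the rescue NPCs and at most 1 per library in the truncation NPCs, in libraries where Sox1 was abundant.

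**Figure D2:**
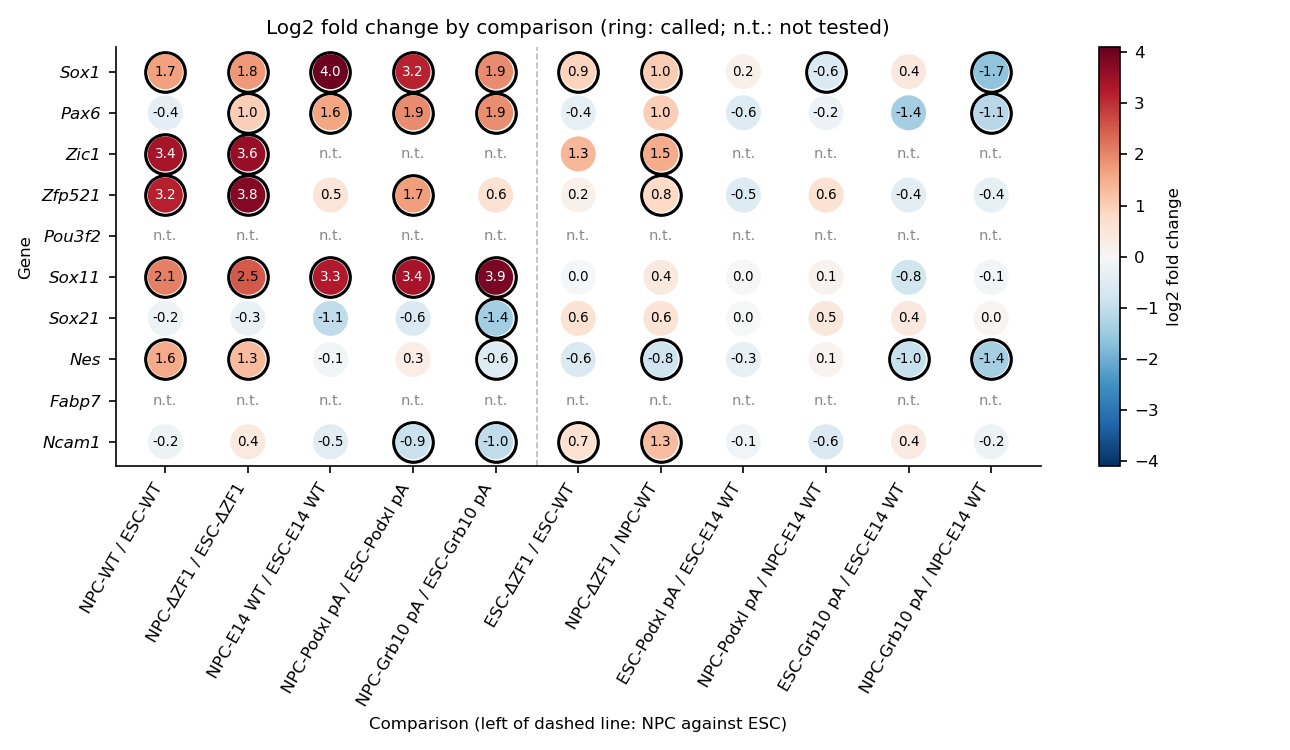
Log2 fold change (colour and number) of each gene (y axis) in 11 comparisons (x axis), with NPC against ESC to the left of the dashed line and mutant against WT to the right. A ring marks a call and n.t. a gene not tested. Sox1 and Sox11 are ringed in all 5 NPC against ESC columns, and Sox1 is ringed in both ΔZF1 columns and in the NPC columns of both pA lines.

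The other neural progenitor genes, a list of 50 that excludes the 10, had more members called higher than lower in each NPC line. Of the 39 that could be tested in the rescue lines, 22 were called higher and 7 lower in NPC-WT, with 22 higher and 6 lower in NPC-ΔZF1. Of 26 tested in the truncation table, 19 were higher and 4 lower in E14, 16 and 4 in Podxl pA, and 17 and 6 in Grb10 pA, where between 16.5% and 22.0% of all genes were called higher. Genes that pass the filter on low counts through NPC libraries favour calls as higher, and how many of the list did so was not examined. The summed level of the list did not rise everywhere. It was 999 to 1001 CPM in ESC-WT and 762 to 849 in NPC-WT, against 1017 to 1035 and 1426 to 1446 in the ΔZF1 line and 872 to 1019 and 1056 to 1173 in E14. In E14 the largest rises were those of Ptn (5.44), a secreted growth factor, and of the transcription factor genes Pou3f1 (5.09) and Otx2 (4.72). The largest falls were Ckb (-2.27), the brain creatine kinase, Sox2 (-1.62), the SoxB1 factor shared with pluripotent cells, and Notch1 (-1.10). In NPC-WT rescue cells Sox9 (5.72), Pax3 (5.09) and Sox5 (4.22) rose most, and Sox2 (-3.18), Hesx1 (-2.79) and Gbx2 (-2.44) fell most. In NPC-ΔZF1 the extremes were Ptn (6.88), Pax3 (5.50) and Sox9 (4.67) against Sox2 (-2.28), Ckb (-2.0) and Gbx2 (-1.53). In Podxl pA they were Otx2 (4.96), Ptn (4.70) and Pou3f1 (4.37) against Ckb (-2.35), Sox2 (-1.39) and Msi1 (-0.70), and in Grb10 pA Otx2 (6.41), Pou3f1 (5.54) and Ptn (4.52) against Ckb (-2.77), Hesx1 (-1.32) and Sox2 (-1.30).

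Some lists of markers of other cell types were also called higher in NPC libraries and others were not. Of 15 extraembryonic endoderm genes, 10 of 15 tested were called higher and 1 lower in NPC-WT, with 15 of 15 higher in NPC-ΔZF1, 11 of 13 in E14, 11 of 13 in Podxl pA and 12 of 13 in Grb10 pA. All 11 surface ectoderm genes tested were higher in both rescue lines, where their summed level reached 3109 to 4424 CPM in NPC-WT and 1348 to 1403 in NPC-ΔZF1, against 318 to 420 in the NPCs of the truncation table. There the list was mixed, with 3 of 9 called higher and 2 lower in E14, 5 and 2 in Podxl pA and 4 and 3 in Grb10 pA. Of the neuron markers tested, 2 of 8 were higher and 3 lower in each rescue line, and of 6 tested among the truncation libraries 0 were higher and 3 lower in E14, with 1 and 3 in each pA line. Of 8 mesoderm genes tested 1 was higher and 3 lower in NPC-WT and 2 and 4 in NPC-ΔZF1, and of 4 in E14 2 were higher and 1 lower. The shares of all genes called in these comparisons were between 14.7% and 22.0% in either direction. The filter on low counts may favour calls as higher in NPCs for these lists as well, which was not examined. The keratin gene Krt8 alone was at 967 to 1386 CPM in NPC-WT and at 24.0 to 37.1 in NPC-E14. The NPC libraries thus held Sox1 next to transcripts of other lineages, and the part of these in the members' levels was not tested.

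**Figure D3:**
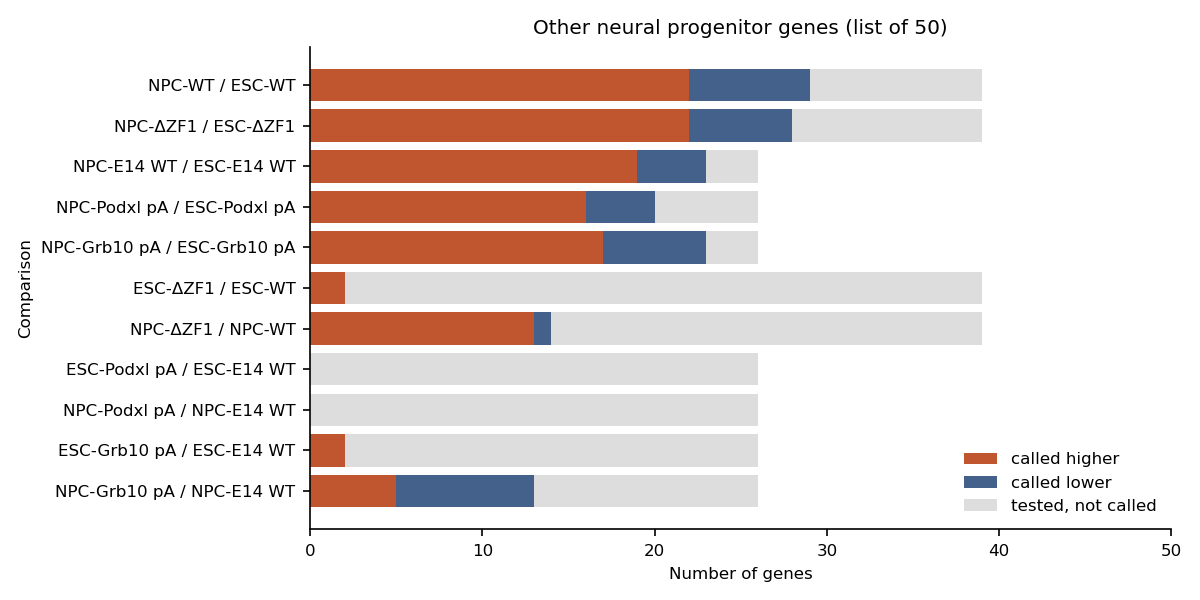
Number of other neural progenitor genes (x axis) called higher (orange), called lower (blue) or tested and not called (grey) in each comparison (y axis), out of a list of 50. In the 5 NPC against ESC comparisons at the top 16 to 22 genes are higher, and in NPC-ΔZF1 against NPC-WT 13 are higher and 1 lower.

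The question put to the rescue lines was what the loss of part of zinc finger 1 does to expression before and after differentiation. The WT and ΔZF1 lines are different clones, and chromosome 11 was lower as a whole in ΔZF1. Its median log2 fold change was -0.46 in ESCs and -0.57 in NPCs, whereas that of every other chromosome lay between -0.04 and 0.17. No member lies on chromosome 11, but the shares of all genes called lower include it. An effect of the CTCF form and other differences between the clones cannot be told apart. Sox1 was higher with ΔZF1 CTCF in NPCs, and in ESCs with a call that rested on every library. In NPCs its level of 39.2 and 40.4 CPM in ΔZF1 against 16.8 and 22.0 in WT was a 2.07-fold difference (log2 1.05 ± 0.16, adjusted p = 0.00192). In ESCs 12.1 and 10.9 against 6.72 and 5.54 CPM was a 1.92-fold difference (0.94 ± 0.20, adjusted p = 0.0316), which was not called when any 1 ESC library was left out (adjusted p up to 0.297) or with a replicate block (adjusted p = 0.0538). The NPC and ESC differences did not differ detectably (interaction 0.11 ± 0.25, adjusted p = 0.853).

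In NPC-ΔZF1 relative to NPC-WT, 4 of the 8 members tested were called higher and 1 lower, where 7.19% of all genes were called higher and 10.5% lower. Ncam1 rose from 29.6 and 32.7 CPM to 77.6 and 72.1 (1.27 ± 0.11, adjusted p = 0.000146), and Zic1 from 0.932 and 1.20 to 3.21 and 2.83 (1.53 ± 0.37, adjusted p = 0.0178). Zfp521 rose from 7.80 and 8.85 to 14.2 and 14.9 CPM (0.81 ± 0.25, adjusted p = 0.0459). Nes went the other way, from 82.2 and 114 CPM in NPC-WT to 55.9 and 53.1 in NPC-ΔZF1 (-0.85 ± 0.17, adjusted p = 0.00794). The WT and ΔZF1 libraries did not overlap for any of the 8 members tested, as for 60.9% of all genes with 2 libraries in each group.

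Pax6 (1.01 ± 0.34, adjusted p = 0.0615), Sox11 (0.40 ± 0.12, adjusted p = 0.0431) and Sox21 (0.56 ± 0.26, adjusted p = 0.147) were not called, the second for its size. Pax6 was called without NPC-WT replicate 1 (1.55, adjusted p = 0.00108) and with no filter on low counts (adjusted p = 0.00917). The calls of Sox1 and Ncam1 in NPCs remained with any 1 library left out, whereas those of Zic1, Zfp521 and Nes were lost without either NPC-ΔZF1 library, where the lone sample is assumed to vary like the other groups. DESeq2 called Sox1, Nes and Ncam1 but neither Zic1 nor Zfp521, and the replicate block lost Zfp521 too (adjusted p = 0.0645).

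In ESC-ΔZF1 relative to ESC-WT, 2 of 8 members were called higher and none lower, with 1.29% of all genes called higher and 2.33% lower. Besides Sox1, Ncam1 was at 58.6 and 55.6 CPM against 36.1 and 35.8 (0.67 ± 0.11, adjusted p = 0.0187). Nes was at 21.7 and 22.2 CPM against 28.0 and 37.6, a difference of -0.60 ± 0.19 that was not called (adjusted p = 0.113). It was called when the ESC libraries were fitted alone (-0.62, adjusted p = 0.000254) and with no filter on low counts (-0.58, adjusted p = 0.0156). The Ncam1 call was also lost when any 1 of the 4 ESC libraries was left out. None of the 8 members tested was called for a difference between the ESC and NPC effects of ΔZF1, where 2.70% of all genes were. By edgeR 2 members, Pax6 and Ncam1, had an unadjusted p under 0.05. DESeq2 called none. Ncam1 was called without either NPC-WT library and Pax6 without NPC-WT replicate 1.

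Among the 39 other progenitor genes, 13 were called higher and 1 lower in NPC-ΔZF1 relative to NPC-WT. Of all genes 7.19% were called higher and 10.5% lower there. The intermediate filament gene Vim (1.85) and the transcription factor gene Hesx1 (1.49) were among those that rose, and Ckb (-0.90) was the gene that fell. In ESC-ΔZF1 the 2 genes called higher were Meis2 (1.42) and Nr2f2 (1.38), where 1.29% of all genes were called higher. Of 15 extraembryonic endoderm genes 14 were also higher in NPC-ΔZF1 than in NPC-WT, with a summed level of 6383 to 6494 against 1375 to 1717 CPM, and Sox17 was at 46.3 to 48.1 against 4.38 to 5.93. Of 11 surface ectoderm genes 2 were higher and 6 lower. Their part in the differences of Sox1, Ncam1 and Nes was not tested.

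With the Podxl RNA truncated, no member was called in ESCs and Sox1 was lower in NPCs. In ESC-Podxl pA relative to ESC-E14 none of the 7 members tested was called by edgeR or by DESeq2, where 0.339% of all genes were called, and none had an unadjusted p under 0.05 in edgeR. In NPCs Sox1 was at 52.4, 48.9 and 52.2 CPM against 83.8, 79.9 and 74.1, a 1.55-fold lower level (log2 -0.63 ± 0.11, adjusted p = 0.00268). It was the only member called in NPC-Podxl pA, where 0.384% of all genes were called higher and 0.166% lower, and the call remained under each alternative that was run (adjusted p at most 0.0329).

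The NPC-Podxl pA and NPC-E14 libraries of Sox1 did not overlap. Ncam1 was also at lower CPM in every NPC-Podxl pA library, at 11.8, 10.9 and 9.50 against 12.6, 16.8 and 18.9, without being called (-0.60 ± 0.20, adjusted p = 0.234). The other 5 had adjusted p of 0.650 or above. The difference of the Sox1 effect between NPCs and ESCs was -0.86 ± 0.26 and was not called (edgeR, adjusted p = 0.216). No member was called for it by edgeR or DESeq2, where 0.0980% of all genes were, and 2 members, Sox1 and Nes, had an unadjusted p under 0.05 in edgeR. None of the 26 other progenitor genes was called in either cell type. Of 13 extraembryonic endoderm genes 6 were higher in NPC-Podxl pA, as were 0.384% of all genes. The summed level of the list was 2356 to 2515 against 1355 to 1706 CPM. The part of these genes in the lower Sox1 was not tested. An effect of the truncated Podxl RNA and other differences between the edited clone and E14 cannot be told apart.

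With the Grb10 RNA truncated, Sox1, Nes and Pax6 were lower in NPCs, and the value of Sox1 includes a shift of its whole chromosome that is described further on. Sox1 was at 22.1, 30.4 and 24.5 CPM in NPC-Grb10 pA against 83.8, 79.9 and 74.1 in NPC-E14, 3.15-fold lower (log2 -1.66 ± 0.12, adjusted p = 1.03e-10). Nes was at 7.99, 9.47 and 8.38 CPM against 21.0, 25.5 and 19.5 (-1.40 ± 0.16, adjusted p = 2.79e-07), and Pax6 at 4.16, 3.74 and 2.74 against 6.80, 7.79 and 9.10 (-1.12 ± 0.31, adjusted p = 0.00732). The groups did not overlap for any of these 3 genes, which were picked as called, and the share of all genes without overlap was not counted here. They were 3 of 7 members called lower, and none was called higher, where 7.90% of all genes were called higher and 8.64% lower. All 3 calls remained with any 1 library left out.

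Sox11 was not called. It was at 49.7, 40.9 and 52.2 CPM in NPC-Grb10 pA and 53.4, 48.6 and 56.3 in NPC-E14, with a log2 difference of -0.13 ± 0.13 (adjusted p = 0.502). Ncam1 (-0.22), Zfp521 (-0.35) and Sox21 (0.04) were not called either. Both comparisons of a pA line use the same NPC-E14 libraries, so the lower Sox1 in both is not a pair of independent observations.

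In ESC-Grb10 pA Nes was the 1 member of 7 called, at 9.95, 14.8 and 13.3 CPM against 25.9, 24.8 and 21.0 (-0.96 ± 0.16, adjusted p = 0.000117), where 4.51% of all genes were called higher and 4.58% lower. Sox1 was at 5.63, 7.25 and 7.11 CPM against 4.80, 5.48 and 3.88, a difference of 0.42 ± 0.23 that was not called (adjusted p = 0.252) although the groups did not overlap. Sox11 (-0.78 ± 0.30) and Pax6 (-1.41 ± 0.54) were not called. Sox11 was called lower without ESC-Grb10 pA replicate 2, and Pax6 without ESC-Grb10 pA replicate 3 or without ESC-E14 replicate 1.

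The effect of Grb10 pA on Sox1 differed between NPCs and ESCs by -2.08 ± 0.26 on the log2 scale (adjusted p = 1.94e-05), the only member called for this difference, where 5.90% of all genes were. Without ESC-Grb10 pA replicate 2, Sox11 was called for it as well. Of the 26 other progenitor genes, 5 were called higher and 8 lower in NPC-Grb10 pA, against 7.90% and 8.64% of all genes. Ptn (-1.61), the homeobox gene Irx5 (-1.60) and Cdh2 (-1.21), which encodes N-cadherin, fell most, and Zic2 (0.99), Otx2 (0.86) and Zic5 (0.62) rose most. In ESC-Grb10 pA the Notch ligand gene Dll1 (1.52) and Gbx2 (0.61) were higher, as were 4.51% of all genes. The extraembryonic endoderm sum was 1291 to 1572 CPM in NPC-Grb10 pA and 1355 to 1706 in NPC-E14, which overlapped. The sums of naive pluripotency and of the wider progenitor list overlapped too. Those of the remaining lists did not. The mesoderm sum was higher, at 78.5 to 96.0 against 43.0 to 50.6 CPM, and so was that of surface ectoderm, at 361 to 420 against 324 to 358. The neural crest sum was higher as well, at 21.9 to 25.5 against 18.0 to 20.7 CPM. The neuron sum was lower, at 71.8 to 74.8 against 137 to 147 CPM. Lower too were glia, at 43.4 to 48.2 against 49.5 to 51.0 CPM, and formative and core pluripotency, at 2391 to 2417 against 2545 to 2680. The part of these lists in the differences of Sox1, Nes and Pax6 was not tested.

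Sox1 is the only member on chromosome 8, which was lower as a whole in Grb10 pA. The median log2 fold change of its 730 tested genes was -0.49 in ESCs and -0.48 in NPCs, whereas that of every other chromosome lay between -0.05 and 0.07. Nes on chromosome 3 and Pax6 on chromosome 2 were lower in Grb10 pA on chromosomes whose medians were near 0. In NPC-Grb10 pA Sox1 lay 1.17 below the chromosome 8 median on the log2 scale, and 10 of the genes on the chromosome were lower. In ESC-Grb10 pA it lay 0.91 above the median, with 24 genes higher. With the median of the chromosome taken into the offsets of the fit, the NPC difference of Sox1 was -1.17 and remained a call, and the ESC difference became a call of 0.91 (adjusted p = 0.00878). The chromosome-wide shift and an effect of the truncated RNA on Sox1 cannot be told apart, since all Grb10 pA libraries share both. Taking out the median assumes that Sox1 shared the shift, which was not tested. Other differences between the edited cells and E14 remain in the corrected values.

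The genes around Sox1 were also mostly lower in Grb10 pA. Within 2 Mb of Sox1 28 other genes were tested. In NPC-Grb10 pA 21 were called lower and 1 higher, with a median of -0.68, below the -0.48 of the chromosome, where 43.0% of the tested genes were called lower. The lowest after Sox1 was Gm10699 at -1.14. In ESC-Grb10 pA 11 were called lower and none higher, with a median of -0.45 against -0.49 for the chromosome, where 39.5% were called lower. That the neighbours differ from the rest of the chromosome was not tested. Tubgcp3, the nearest tested gene on the 3′ side, 219 kb away, was lower in both (-0.90 in ESCs and -0.99 in NPCs), while Sox1 was at 0.42 in ESCs and -1.66 in NPCs. In NPC-Podxl pA, where Sox1 was at -0.63, none of the 28 neighbours was called lower, 2 were called higher, and their median was -0.04.

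**Figure D4:**
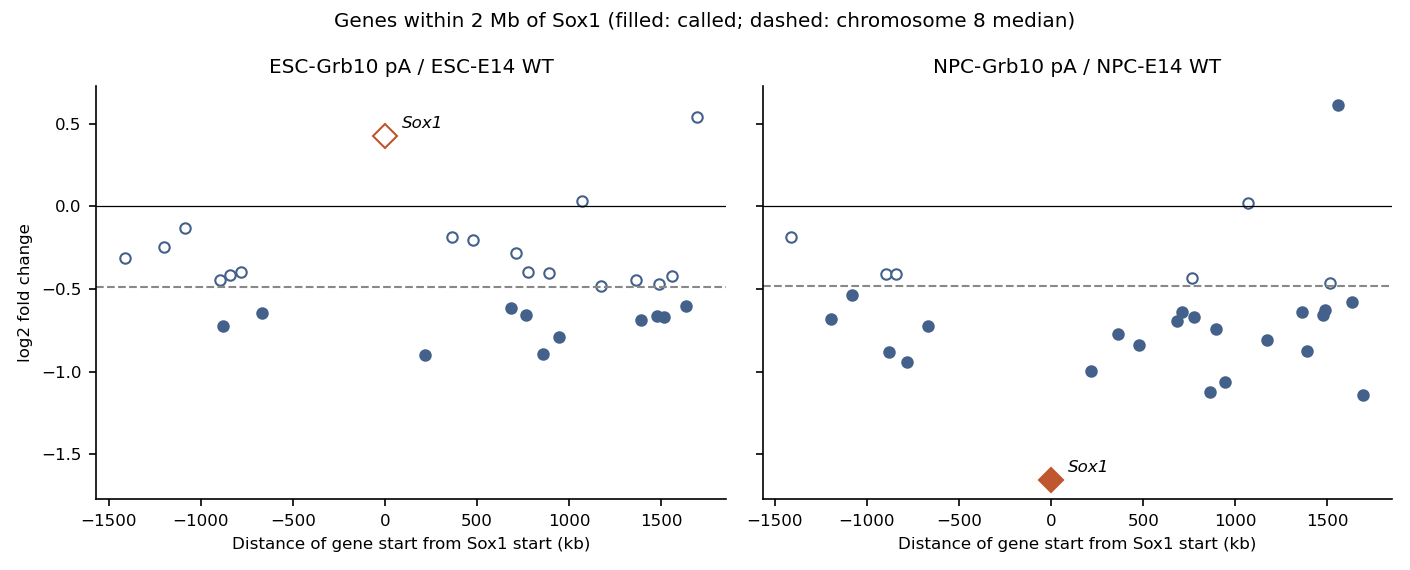
Log2 fold change (y axis) of Grb10 pA against E14 for Sox1 (diamond) and the 28 tested genes within 2 Mb (circles), by distance from Sox1 in kb (x axis), in ESCs (left) and NPCs (right). Filled symbols are called, and the dashed line is the chromosome 8 median. Sox1 lies at 0.42, above most neighbours, in ESCs and at -1.66, below all of them, in NPCs.

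The genes whose levels were most like Sox1 were found as the 5 with the highest Pearson correlation of log2 CPM in each table, leaving out genes whose normalized counts averaged under 100. Over the 8 rescue libraries these were Sox7 (r = 0.99), Gtf2i, Dip2b, Atp6v0b and Ppp4r1l-ps (all 0.99), and Sox7 is itself among the extraembryonic endoderm markers. Over the 18 truncation libraries they were Igdcc4 (0.98), an immunoglobulin superfamily gene, Bcl2l11 (0.98), which encodes the BH3-only protein Bim, Enc1 (0.97), Tle4 (0.97), a Groucho corepressor gene, and Clgn (0.97). The libraries share lines, depth and cell type, so these correlations describe the order of groups. Among the members, the correlation with Sox1 was 0.94 for Zic1, 0.91 for Zfp521, 0.90 for Sox11, 0.56 for Ncam1, 0.55 for Nes, 0.44 for Pax6 and 0.19 for Sox21 in the rescue table. In the truncation table it was 0.92 for Sox11, 0.83 for Pax6, 0.62 for Zfp521, 0.11 for Nes, -0.66 for Sox21 and -0.74 for Ncam1, so the sign for Sox21 and Ncam1 differed between the tables.

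Overlapping genes could add reads to a member or take reads from it, since the counting did not use strand. How reads shared by overlapping genes were counted is not given, so the counts below may not include them. Gm4675, on the opposite strand, covers 18.8% of the exon bases of Sox21 and had at most 8 reads in a library. Gm11149 covers 4.81% of Ncam1 and had at most 17 reads, and Sox1ot, which shares no exon base with Sox1, had at most 8. These counts are small beside those of Sox1 and Ncam1, though not beside the 1 to 81 reads of Sox21.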

How the data were processed

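RNA-seq libraries were rRNA-depleted and randomly primed. The authors aligned reads to mm10 with STAR and deposited raw counts per gene symbol from featureCounts, counted without strand, in 2 tables. The gene annotation is not given in the sources used here. Symbols were matched to 53186 symbols of GENCODE M21 for positions and exon lengths, and promoters came from RefSeq (GRCm38.p6). In all, 3 columns of per-sample values matched no sample and were not used.

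Each table was fitted on its own in R 4.3.3 with edgeR 4.0.16 (TMM factors, filterByExpr, 1 mean per group over all libraries, quasi-likelihood test). The filter asked for 0.666 CPM in 2 libraries of the rescue table and 2.24 CPM in 3 libraries of the truncation table, which left 16641 and 13268 genes. Adjusted p (Benjamini-Hochberg) was taken over all of them, and a call needed 0.05 or less together with a log2 change of 0.5 or more in size. Total counts of 1907505 to 28730435 per library limit the precision for members under about 10 reads. The scripts were tested on simulated data.

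The 10 members and all lists were chosen with earlier results of these data known. Named genes were the members, the 5 genes per table most correlated with Sox1 (normalized counts averaging 100 or more), and up to 3 rises and 3 falls of the wider progenitor list per comparison. One result under this rule is not reported here. Genes on or near Sox1 and markers of other cell types are named beside results that they touch. Alternatives were DESeq2 1.42.0, its size factors, no filter, at least 10 counts in every library, an adjusted p of 0.01, the groups compared alone, a replicate block, the chromosome 8 median in the offsets and each library left out.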

Additional observations from a re-analysis of the deposited data

Results flagged for a closer look

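The effect of Grb10 pA on Sox1 stood out as differing between the cell types by a test of the difference itself. The log2 fold change of Grb10 pA against E14 was 0.42 in ESCs and -1.66 in NPCs, a difference of -2.08 ± 0.26 (edgeR, adjusted p = 1.94e-05, n = 3 libraries per group). Every Grb10 pA library lay above every E14 library in ESCs and below every one in NPCs. The ESC difference was not called (edgeR, adjusted p = 0.252). Both values include the shift of chromosome 8, whose median log2 fold change was -0.49 in ESCs and -0.48 in NPCs. The difference lay between -2.21 and -1.97 over the 20 alternatives run, and it was called in each of them.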

How the results depend on the processing

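No member changed sign with a call under any alternative run. The number of members called moved by more than 1.5 times in these cases, for which the cause was not tested unless stated. With at least 10 counts in every library, which tests fewer members, 3 were called in NPC-WT against ESC-WT, 3 in NPC-ΔZF1 against ESC-ΔZF1, 3 in NPC-ΔZF1 against NPC-WT, 1 in E14, 2 in Podxl pA and 3 in Grb10 pA NPCs against ESCs. At an adjusted p of 0.01, 0 members were called in ESC-ΔZF1 against ESC-WT and 3 in NPC-ΔZF1 against NPC-WT, and DESeq2 also called 3 in the latter. The chromosome 8 median in the offsets gave 2 members in ESC-Grb10 pA against E14, with Sox1 called at 0.91. With 1 library left out, the count was 0 to 0 in ESC-ΔZF1 against ESC-WT, 2 to 6 in NPC-ΔZF1 against NPC-WT, 1 to 2 in ESC-Grb10 pA against E14, 0 to 2 for the ΔZF1 difference between cell types and 1 to 2 for the Grb10 pA difference.

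Replicate numbers were not treated as pairing the samples, since deviations of same-numbered libraries correlated at only -0.09 to 0.13. With a replicate block 1 member, Ncam1, was called in ESC-ΔZF1 against ESC-WT, where Sox1 had an adjusted p of 0.0538 in edgeR. The block also lost Pax6 in NPC-ΔZF1 against ESC-ΔZF1 (0.0569) and Zfp521 in NPC-ΔZF1 against NPC-WT (0.0645), and it changed no other call of a member. Low depth limits Zic1, Pou3f2, Fabp7 and Sox21 most.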
